A study of Mus musculus with 4 samples.

Results

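The genes of the integrin and laminin families were examined in RNA-Seq libraries of CD4+ T cells isolated from mouse lung tumors. Members were set by a rule on the symbol: every gene named as an integrin alpha or beta subunit, or as a laminin alpha, beta or gamma chain. The classes used below are not defined by symbol, and members and lists were chosen with earlier results of these data known. The rule gave 37 of the 25239 gene symbols in the files, 26 of them integrins and 11 of them laminins. The 4 libraries came from mice of C57BL/6 background, 2 of them labelled WT and 2 labelled CD4/ALK4-KO, and all mice had received 500000 LLC-OVA cells intravenously, Lewis lung carcinoma cells engineered to make ovalbumin. The genotype of the CD4/ALK4-KO mice was CD4CreERT2+/-/Acvr1bfl/fl, in which tamoxifen activates a Cre recombinase driven by the *Cd4* promoter and thereby deletes *Acvr1b*, the gene of the activin receptor ALK4. Per the study's methods, male mice of 8 to 10 weeks were used and tamoxifen was given at 75 mg/kg in each of 5 daily doses. The sources used here do not state whether the mice labelled WT received tamoxifen or whether animals were pooled. The labels give tumor excision at days 18 to 22 and the methods days 16 to 20.

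Integrins are transmembrane receptors made of 1 alpha and 1 beta subunit, and they tie a cell to its surroundings. The partners of *Itgb2* and *Itgb7* are largely restricted to leukocytes and bind counter-receptors on other cells, whereas most partners of *Itgb1* bind extracellular matrix such as collagen, fibronectin and laminin. Laminins are trimers of 1 alpha, 1 beta and 1 gamma chain, secreted mainly by epithelial, endothelial, muscle and other adherent cells, that form the scaffold of basement membranes. In T cells, LFA-1 (*Itgal* with *Itgb2*) steadies contact with antigen-presenting cells, and VLA-4 (*Itga4* with *Itgb1*) binds VCAM-1 on inflamed endothelium. CD103, the product of *Itgae*, pairs with that of *Itgb7*, binds E-cadherin and marks cells that stay in epithelial tissue.

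The total counts ran from 11823908 to 13943237 per library, and 0.356% to 0.496% of them fell on the 37 members. The targeted gene *Acvr1b* had 426 and 342 counts in the WT-labelled pair and 322 and 445 in the CD4/ALK4-KO-labelled pair (log2 fold change 0.16, standard error, SE, 0.24, adjusted p = 0.66, edgeR's quasi-likelihood test). The counts did not separate the genotypes, and every direction below is between the libraries as labelled. Counts per gene do not show single exons, and the libraries also held markers of other cells. Deletion of *Acvr1b* in the T cells was therefore not tested. All 10 T cell markers were higher in the CD4/ALK4-KO-labelled pair at an adjusted p under 0.05, beside 17.4% of all genes tested. Their summed level went from 404 and 368 to 2064 and 1874 CPM (counts scaled to a common library size, after TMM adjustment of the library sizes). Markers of other cells were present as well. The sum of 8 fibroblast markers, 4013 to 7356 CPM, exceeded that of the T cell markers in each of the 4 libraries. The lists differ in the number and length of their genes, so these sums do not give the proportions of the cell types. Since the T cell markers moved with the labels, fold changes are also given on a CD3 scale, where the libraries are scaled to the summed counts of *Cd3d*, *Cd3e*, *Cd3g* and *Cd247* (2650 and 2454 against 10768 and 9932). Relative to TMM this scale moved the log2 fold change of the median gene by -2.18, and that of *Acvr1b* was -2.01 on it. The 4 CD3 genes themselves ran from -0.22 (*Cd3d*) to 0.75 (*Cd3e*) on this scale. The sign of a value within that range therefore depends on the CD3 genes chosen. A value between -2.18 and 0 is a smaller fall than that of the median gene. Adjusted p-values on the CD3 scale take the scaling as fixed and largely reflect this common shift.

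Promoter windows from RefSeq (GRCm38.p6) were matched to 23 of the 37 members. Windows of 4 genes are shown, 250 bases ending just before the annotated gene start, for abundant genes of 3 classes on which the comparison below turns: *Itga4* (chr2:79255176-79255425, plus strand) and *Itgam* (chr7:128062390-128062639, plus strand) from the leukocyte integrins, *Itgb5* (chr16:33829415-33829664, plus strand) from the stromal integrins and *Lama5* (chr2:180225860-180226109, minus strand) from the laminins. Capitals mark matches, on either strand, to the core letters of 3 motifs that do not overlap here: TGTGGT of RUNX factors, GAGGAA of ETS factors such as PU.1, and GGGCGG of the GC box bound by Sp1 and KLF factors.
Itga4: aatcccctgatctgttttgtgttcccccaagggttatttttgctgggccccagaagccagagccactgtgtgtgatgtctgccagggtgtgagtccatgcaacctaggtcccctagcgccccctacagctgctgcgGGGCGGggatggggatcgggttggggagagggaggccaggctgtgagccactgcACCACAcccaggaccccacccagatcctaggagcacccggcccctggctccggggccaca
Itgam: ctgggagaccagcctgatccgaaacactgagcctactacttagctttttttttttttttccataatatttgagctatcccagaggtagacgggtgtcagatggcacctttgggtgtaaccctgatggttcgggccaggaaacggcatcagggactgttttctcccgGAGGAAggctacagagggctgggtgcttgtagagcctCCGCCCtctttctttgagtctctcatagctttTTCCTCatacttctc
Itgb5: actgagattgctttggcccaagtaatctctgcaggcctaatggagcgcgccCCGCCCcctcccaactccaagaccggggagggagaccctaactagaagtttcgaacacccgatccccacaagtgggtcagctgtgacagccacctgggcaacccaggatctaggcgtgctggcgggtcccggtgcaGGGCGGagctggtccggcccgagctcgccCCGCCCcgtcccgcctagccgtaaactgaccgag
Lama5: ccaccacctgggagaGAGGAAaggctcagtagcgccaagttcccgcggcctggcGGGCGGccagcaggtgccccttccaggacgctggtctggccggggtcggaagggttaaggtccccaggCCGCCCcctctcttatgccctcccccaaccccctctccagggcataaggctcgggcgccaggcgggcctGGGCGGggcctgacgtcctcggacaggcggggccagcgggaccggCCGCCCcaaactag
The window of *Itga4*, the alpha subunit of VLA-4, held 1 RUNX match and 1 GC box, and that of *Itgam*, the CD11b subunit of myeloid cells, held 2 ETS matches and 1 GC box. The window of *Itgb5* held 3 GC boxes, and that of *Lama5* held 4 GC boxes and 1 ETS match. Across 32851 promoters of the same length, 14% held the RUNX core, 23.3% the ETS core and 32.7% a GC box. The 23 members had 26 windows, and 2 members held the RUNX core, 13 the ETS core and 8 a GC box in at least 1 window, a count per member that is not on the same footing as the shares per promoter. These matches describe the letters only.

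Of the 37 members, 33 passed the expression filter. At an adjusted p under 0.05, 10 were higher and 7 lower in the CD4/ALK4-KO-labelled pair, and 16 were not called. Among all 13919 genes tested, 17.4% were higher and 15.4% lower against 30.3% and 21.2% of the 33 members tested. The median log2 fold change of the members tested was 0.10, beside -0.0082 for all genes tested, and that of the members turned to -0.051 without CD4/ALK4-KO replicate 2, whereas it was 0.31 when WT replicate 1 was left out and 0.34 when CD4/ALK4-KO replicate 1 was. The leukocyte integrins had 6 of 8 higher and 0 lower (median 1.73, and -0.46 on the CD3 scale), the broad and platelet integrins 1 of 6 higher and 1 lower (median -0.19, and -2.37), the stromal integrins 2 higher and 3 lower of 10 tested (median 0.10, and -2.07), and the laminins 1 higher and 3 lower of 9 tested (median -0.42, and -2.59). The laminin median turned to 0.035 with no filter on low counts, and stood at -0.15 or -0.21 when WT replicate 1 or 2 was left out and at -0.040 when CD4/ALK4-KO replicate 1 was. For the stromal integrins it was 0.0095 when CD4/ALK4-KO replicate 2 was left out, 0.22 when WT replicate 1 was and 0.21 when CD4/ALK4-KO replicate 1 was. The broad and platelet integrins had a median of -0.31 when CD4/ALK4-KO replicate 2 was left out and of -0.11 when CD4/ALK4-KO replicate 1 was. On the CD3 scale none of the members was higher and 27 were lower, beside 48 genes higher and 12803 lower among all genes. In bulk libraries such as these, fewer cells of a type and less RNA per cell cannot be told apart.

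**Figure D1:**
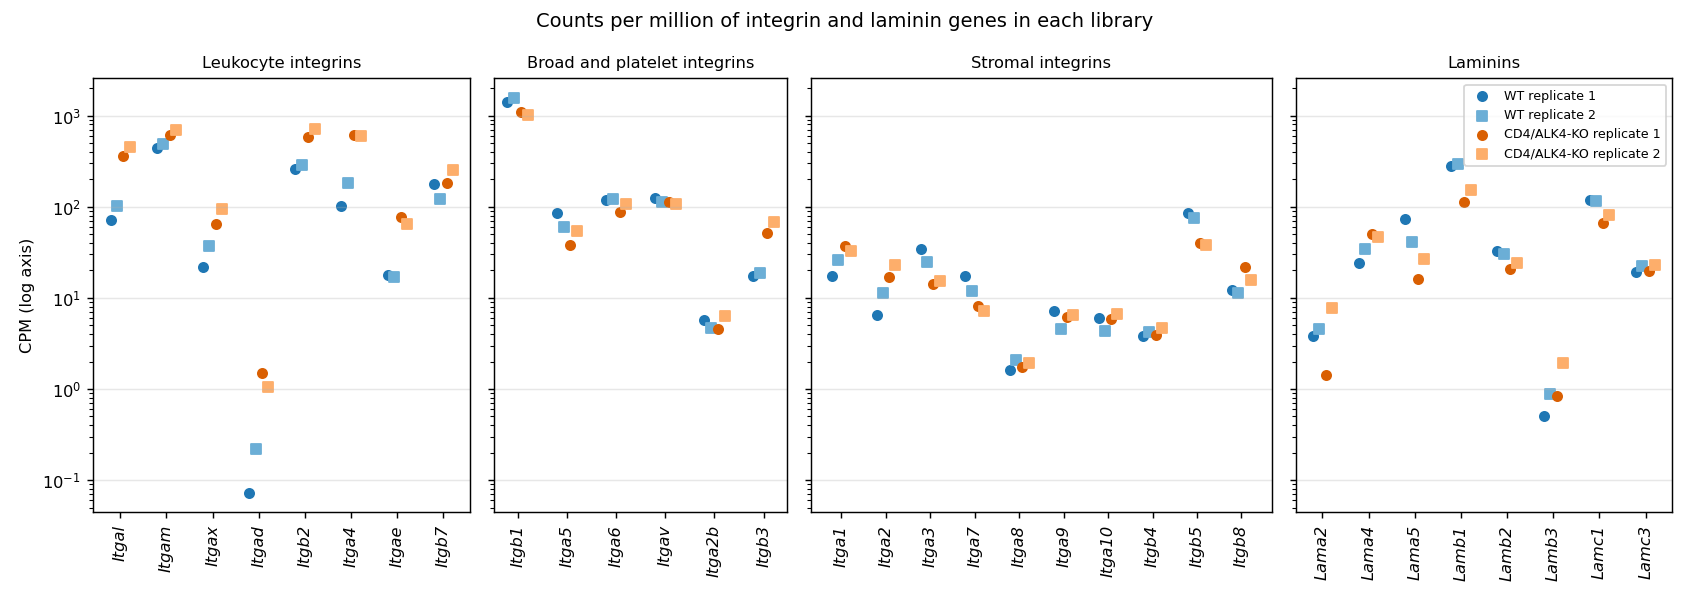
Level of 32 of the 33 tested members in each of the 4 libraries, in CPM on a log axis, with members grouped by class. Blue points are the WT-labelled pair and orange points the CD4/ALK4-KO-labelled pair. Itgal, Itga4 and Itgae of the leukocyte integrins stand higher in both orange libraries, whereas Itgb5, Lamb1 and Lama5 stand lower in both. On the CD3 scale Itgal, Itga4 and Itgae were at 0.051, -0.11 and -0.16, within the range of the CD3 genes themselves.

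Among the leukocyte integrins, *Itgal* (chromosome 7, 127296260 to 127335138, GRCm38) encodes the CD11a subunit of LFA-1. It had 71.0 and 100.9 CPM in the WT-labelled pair and 361 and 448 CPM in the CD4/ALK4-KO-labelled pair. The groups did not overlap, and the lowest library labelled CD4/ALK4-KO was above 3 times the highest library labelled WT. With 2 libraries against 2, an exact two-sided permutation test of such a separation cannot go below p = 0.333. Lack of overlap is therefore description only, here and below, and its share among all genes tested was not counted. Its log2 fold change was 2.23 (SE 0.24, adjusted p = 4.1e-07), but 0.051 on the CD3 scale (adjusted p = 0.83). *Itgb2* (chromosome 10, 77530252 to 77565708), the beta subunit that LFA-1 shares with the myeloid integrins, had 257 and 290 CPM against 576 and 712 CPM. It too was higher in both CD4/ALK4-KO-labelled libraries, with a log2 fold change of 1.23 (SE 0.22, adjusted p = 1.6e-04), and was lower on the CD3 scale, at -0.94 (adjusted p = 3.3e-05).

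The other alpha subunits that pair with *Itgb2* lie next to one another on chromosome 7, in the order *Itgam*, *Itgax* and *Itgad*, on the same strand as *Itgal*. *Itgam* (128062640 to 128118491), which encodes CD11b of macrophages, neutrophils and NK cells, had 446 and 486 CPM in the WT-labelled pair and 620 and 693 CPM in the CD4/ALK4-KO-labelled pair. On the CD3 scale, which moved the median gene by -2.18, *Itgam* was at -1.69 (adjusted p = 4.0e-13). The groups did not overlap in CPM, yet its TMM log2 fold change of 0.49 (SE 0.21, adjusted p = 0.075) missed the threshold in edgeR. It passed in DESeq2's Wald test (0.50, adjusted p = 0.036). Without CD4/ALK4-KO replicate 1 the log2 fold change of *Itgam* was 0.60 (adjusted p = 0.0025). Of the exonic bases of *Itgam*, 68.7% are also annotated to an overlapping gene on the same strand. That gene is not among the deposited gene symbols. Whether the annotation used for counting held it is not stated, so a loss or sharing of reads could not be checked. *Itgax* (128129547 to 128150657), the CD11c subunit common on dendritic cells and lung macrophages, had 22.0 and 37.1 CPM against 64.4 and 94.4 CPM. It was higher in both CD4/ALK4-KO-labelled libraries, with a log2 fold change of 1.42 (SE 0.26, adjusted p = 2.4e-04), and lower on the CD3 scale, at -0.76 (adjusted p = 0.0051). *Itgad* (128154376 to 128223816), a sparse subunit of tissue macrophages, had only 1 and 3 counts in the WT-labelled pair and 18 and 13 in the CD4/ALK4-KO-labelled pair. Of its exonic bases, 19.7% are shared with other annotated genes, and those among the deposited gene symbols reached 32 counts in a library. Whether reads were lost or shared there could not be checked. The ratio of the summed counts of *Itgad*, scaled by library size, was 8.70 with an exact counting interval of 3.08 to 33.9. Its log2 fold change of 3.04 (SE 0.89, adjusted p = 0.011) lost the call without WT replicate 1 (adjusted p = 0.31) and without WT replicate 2 (adjusted p = 0.12), and was 0.91 on the CD3 scale (adjusted p = 0.39).

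Among the subunits of the alpha4 and beta7 integrins, *Itga4* (chromosome 2, 79255426 to 79333123), whose promoter is shown above, had 103 and 180 CPM in the WT-labelled pair and 605 and 600.0 CPM in the CD4/ALK4-KO-labelled pair. The replicates labelled WT differed more between themselves than the CD4/ALK4-KO-labelled pair, but the groups were well apart. Its log2 fold change was 2.09 (SE 0.25, adjusted p = 1.6e-06) and -0.11 on the CD3 scale (adjusted p = 0.64), and it ran from 1.73 without WT replicate 1 to 2.54 without WT replicate 2. *Itgae* (chromosome 11, 73090583 to 73147446), which encodes CD103, had 17.7 and 17.0 CPM against 77.04 and 64.7 CPM. The replicates lay close together and the groups did not overlap, with a log2 fold change of 2.03 (SE 0.23, adjusted p = 6.9e-07) and of -0.16 on the CD3 scale (adjusted p = 0.58). *Itgb7* (chromosome 15, 102215995 to 102231944), the beta partner of both, had 178 and 120 CPM against 183 and 254 CPM. WT replicate 1 lay near CD4/ALK4-KO replicate 1. On the CD3 scale, which moved the median gene by -2.18, *Itgb7* was at -1.61 (adjusted p = 9.7e-12). On the TMM scale its log2 fold change of 0.55 (SE 0.24, adjusted p = 0.080) missed the threshold. Without CD4/ALK4-KO replicate 1 it was at 0.80 (adjusted p = 2.7e-04) and without WT replicate 1 at 0.85 (adjusted p = 0.10), but it was at 0.29 without WT replicate 2 (adjusted p = 0.66) and likewise when CD4/ALK4-KO replicate 2 was left out (adjusted p = 0.25).

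Counts of the leukocyte integrins were also set against those of the T cell genes within each library. Per 1000 counts of the 4 CD3 genes, a description chosen after the counts were seen, *Itgal* had 367 and 556 counts in the WT-labelled pair and 399 and 557 in the CD4/ALK4-KO-labelled pair. For *Itga4* these values were 533 and 994 against 669 and 746, and for *Itgae* 91.7 and 93.7 against 85.2 and 80.4. The groups overlapped for *Itgal* and *Itga4* and lay close together for *Itgae*. In contrast, *Itgam* had 2308 and 2680 counts per 1000 CD3 counts in the WT-labelled pair and 686 and 862 in the CD4/ALK4-KO-labelled pair, and *Itgb7* had 922 and 663 against 203 and 315. *Itgb2* lay between, at 1328 and 1600 against 637 and 884. The groups overlapped for *Itgax*, at 114 and 205 against 71.1 and 117, and *Itgad*, with few counts, had 0.4 and 1.2 against 1.7 and 1.3. These values rest on the same CD3 counts as the CD3 scale and are not a second check of it.

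**Figure D2:**
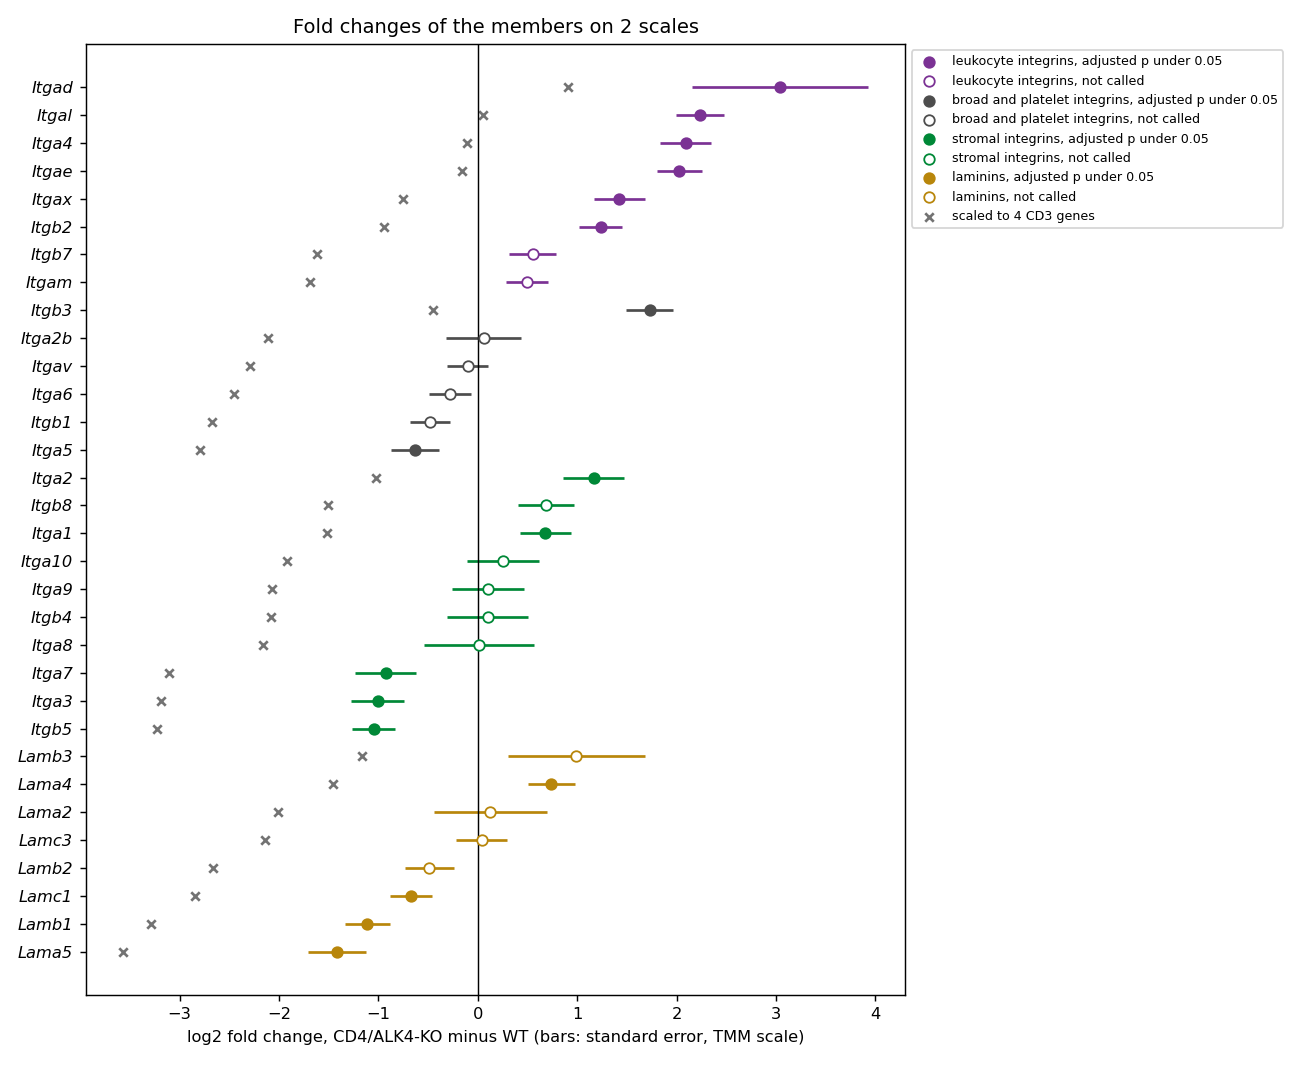
Log2 fold change of 32 of the 33 tested members between the CD4/ALK4-KO-labelled pair and the WT-labelled pair, with bars for the standard error on the TMM scale. Filled points passed an adjusted p of 0.05, and grey crosses give the same genes on the CD3 scale, where all but Itgal and Itgad lie below 0. The crosses of Itgal, Itga4 and Itgae lie within the range of the CD3 genes themselves, so their sign depends on the CD3 genes chosen.

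Markers of several leukocytes moved beside these genes, and the single markers named here and further on were picked after their values were seen. For each marker list the background was 17.4% of all genes tested higher and 15.4% lower. The 6 B cell markers and the 5 tested markers of CD8 T and NK cells were all higher in the CD4/ALK4-KO-labelled pair, with medians of 2.47 and 2.31 on the log2 scale and summed levels of 62.0 and 52.6 against 174 and 338 CPM and of 69.3 and 81.1 against 422 and 300 CPM, respectively. Only 1 of those lists had a marker near absence, *Klra4*, with 2 counts in all. Of the macrophage markers, which include cells that carry *Itgam* and *Itgax*, 2 of 10, *Csf1r* and *Siglecf*, were higher and 0 lower (median -0.39, summed level 1456 to 1994 CPM in the WT-labelled pair and 1321 to 1570 CPM in the CD4/ALK4-KO-labelled pair). For neutrophils 2 of 8, *Csf3r* and *Cxcr2*, were higher and 0 lower (median 0.45, 948 to 1467 CPM against 966 to 1528 CPM), and for dendritic cells *Flt3*, *Cd209a* and *Siglech* were higher and *Clec9a* lower of 6 (median 0.97, 78.4 and 79.2 against 143 and 98.2 CPM). On the CD3 scale the medians of the macrophage, neutrophil and dendritic cell lists were -2.57, -1.75 and -1.22, whereas those of the B cell and of the CD8 T and NK cell lists stayed above 0, at 0.31 and 0.16. The part of these cells in the levels of the leukocyte integrins was not tested.

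Shares of counts taken within a library do not depend on the scaling between libraries. Of the counts of the 4 alpha subunits of *Itgb2*, *Itgal* took 13.2% and 16.2% in the WT-labelled pair and 34.5% and 36.2% in the CD4/ALK4-KO-labelled pair. The exact 95% binomial intervals, which cover counting error only, were 12.4% to 13.96% and 15.4% to 17.0% against 33.7% to 35.3% and 35.5% to 37.0%, so the groups were apart by more than counting error and by more than the replicates differed. The share of *Itgam* was the mirror image, 82.7% and 77.9% against 59.2% and 56.0%. For *Itgax* the shares were 4.09% and 5.94% against 6.15% and 7.63%, with WT replicate 2 close to CD4/ALK4-KO replicate 1. With 2 libraries against 2 an exact two-sided permutation test cannot go below p = 0.333, and none was run on the shares.

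The share of *Itgb7* among the counts of *Itgb1* and *Itgb7*, the beta subunits that *Itga4* can pair with, was 11.3% and 7.18% in the WT-labelled pair and 14.2% and 20.1% in the CD4/ALK4-KO-labelled pair. The groups did not overlap, but the replicates within each group differed by more than the nearest libraries of the groups. The share of *Itgae* among *Itgae* and *Itga4* was 14.7% and 8.62% against 11.3% and 9.74%, so both CD4/ALK4-KO-labelled libraries lay within the range of the WT-labelled pair. The leukocyte integrins together took 36.0% and 37.6% of all integrin counts in the WT-labelled pair and 61.5% and 65.6% in the CD4/ALK4-KO-labelled pair. Laminins took 15.6% and 14.5% of all member counts against 6.83% and 7.91%. In both of these shares the gap between the groups was several times the difference between replicates.

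**Figure D3:**
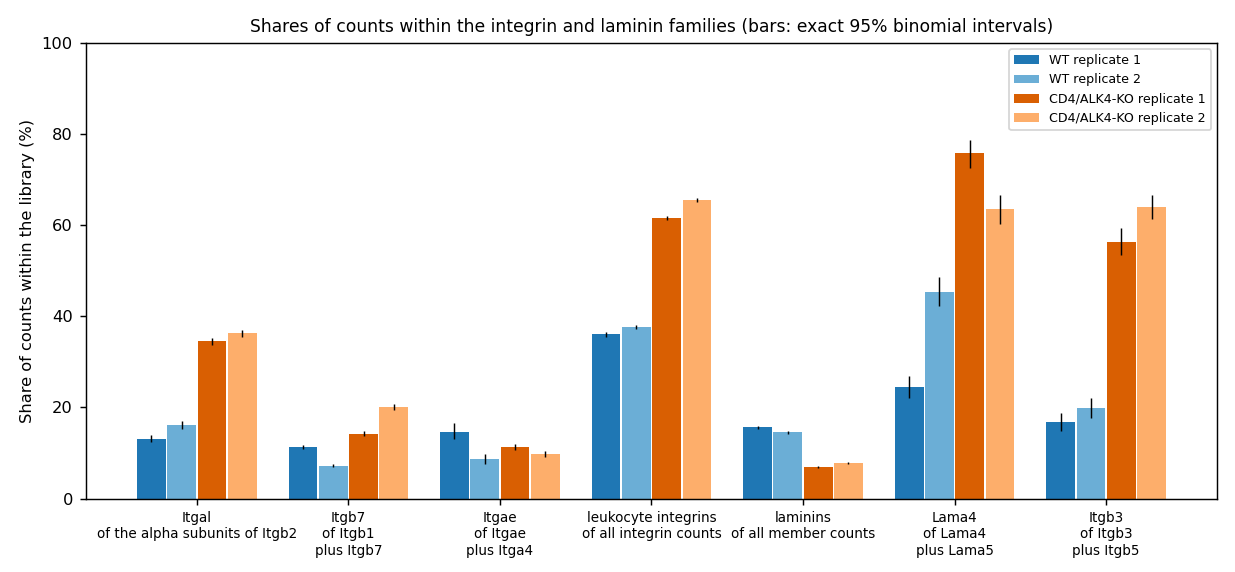
Shares of counts within each library for 7 ratios inside the families, in percent, with exact 95% binomial intervals as bars. The share of Itgal among the alpha subunits of Itgb2 goes from 13.2% and 16.2% to 34.5% and 36.2%, whereas that of Itgae among Itgae and Itga4 overlaps between the groups.

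Among the broadly expressed and platelet integrins, *Itgb1* (chromosome 8, 128685654 to 128733200) is the beta subunit with the most alpha partners. It had 1403 and 1555 CPM in the WT-labelled pair and 1107 and 1010 CPM in the CD4/ALK4-KO-labelled pair. The groups did not overlap, and the log2 fold change of -0.48 (SE 0.20, adjusted p = 0.068) missed the threshold in edgeR with TMM. *Itgb1* passed it in DESeq2's Wald test (adjusted p = 0.047) and with upper quartile scaling (adjusted p = 0.031), but not with the replicate number as a block. With single libraries left out, its log2 fold change ran from -0.56 without WT replicate 1 to -0.42 without WT replicate 2. On the CD3 scale, which moved the median gene by -2.18, *Itgb1* was at -2.67 (adjusted p = 7.2e-29). *Itga5* (chromosome 15, 103344286 to 103366763), which forms the fibronectin receptor with *Itgb1*, had 84.5 and 59.8 CPM against 38.5 and 54.7 CPM. WT replicate 2 and CD4/ALK4-KO replicate 2 lay close together. Its log2 fold change of -0.63 (SE 0.24, adjusted p = 0.045) lost the call in DESeq2's test (adjusted p = 0.064), without WT replicate 1 (-0.37, adjusted p = 0.56), without WT replicate 2 (adjusted p = 0.057) and without CD4/ALK4-KO replicate 1 (-0.37, adjusted p = 0.19), and was -2.80 on the CD3 scale.

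*Itgb3* (chromosome 11, 104608000 to 104670476), the beta subunit of the platelet fibrinogen receptor and of the vitronectin receptor, had higher levels in both CD4/ALK4-KO-labelled libraries. It had 17.3 and 18.8 CPM in the WT-labelled pair and 51.9 and 67.6 CPM in the CD4/ALK4-KO-labelled pair. Both groups stood apart, and the log2 fold change was 1.73 (SE 0.24, adjusted p = 7.6e-06), with -0.45 on the CD3 scale (adjusted p = 0.13). Its alpha partners were not called. *Itga2b*, the platelet partner, had 5.77 and 4.66 CPM against 4.54 and 6.32 CPM (log2 fold change 0.059, adjusted p = 0.92), and *Itgav*, the partner in the vitronectin receptor, had 125 and 112 CPM against 113 and 108 CPM (-0.10, adjusted p = 0.74). *Itga6*, a laminin receptor subunit that platelets also carry, had 117 and 121 CPM against 88.7 and 108 CPM (-0.28, adjusted p = 0.33). On the CD3 scale *Itga2b*, *Itgav* and *Itga6* were at -2.11, -2.29 and -2.46. Of the 4 platelet markers tested 0 were higher and 2, *Pf4* and *Ppbp*, lower, beside 17.4% higher and 15.4% lower of all genes tested. The summed level of the list was 377 and 291 CPM against 169 and 170 CPM.

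The stromal integrins are subunits best known from fibroblasts, epithelium, muscle and other adherent cells. *Itgb5* (chromosome 16, 33829665 to 33949338), a partner of *Itgav* that binds vitronectin, had 86.2 and 75.9 CPM in the WT-labelled pair and 40.2 and 38.2 CPM in the CD4/ALK4-KO-labelled pair. The replicates lay close together and the groups did not overlap, with a log2 fold change of -1.05 (SE 0.22, adjusted p = 7.8e-04) and of -3.23 on the CD3 scale. *Itga3* (chromosome 11, 95044474 to 95076801), an epithelial laminin receptor subunit, had 34.4 and 24.8 CPM against 14.3 and 15.2 CPM. The log2 fold change was -1.01 (SE 0.27, adjusted p = 0.0057) and -3.18 on the CD3 scale, but -0.76 with adjusted p = 0.21 without WT replicate 1. *Itga7* (chromosome 10, 128933818 to 128958282), the laminin receptor subunit of muscle, had 17.2 and 11.8 CPM against 8.07 and 7.21 CPM, a log2 fold change of -0.93 (SE 0.30, adjusted p = 0.022) and of -3.11 on the CD3 scale. Without WT replicate 1 *Itga7* was at -0.64 (adjusted p = 0.41).

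Both collagen receptor subunits that activated lymphocytes can also carry were on the other side. *Itga2* (chromosome 13, 114833081 to 114932100) had 6.42 and 11.4 CPM in the WT-labelled pair and 17.1 and 22.8 CPM in the CD4/ALK4-KO-labelled pair. It was higher in both of the latter, with a log2 fold change of 1.16 (SE 0.31, adjusted p = 0.0057), was lower on the CD3 scale at -1.02 (adjusted p = 0.0032), and without WT replicate 1 lost the call (0.80, adjusted p = 0.22). Its neighbour *Itga1* (chromosome 13, 114953096 to 115101964), the CD49a subunit of tissue-resident lymphocytes and smooth muscle, had 17.4 and 26.02 CPM against 36.8 and 32.7 CPM. There was no overlap between the groups, and the log2 fold change was 0.68 (SE 0.25, adjusted p = 0.043) and -1.52 on the CD3 scale (adjusted p = 7.4e-07). That call of *Itga1* was lost in DESeq2's test (adjusted p = 0.051), with upper quartile scaling (adjusted p = 0.073), without WT replicate 1 (0.41, adjusted p = 0.55) and without WT replicate 2 (adjusted p = 0.063).

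The remaining stromal subunits did not pass the test. *Itgb8*, which binds latent TGF-beta, had 12.2 and 11.2 CPM in the WT-labelled pair and 21.8 and 15.8 CPM in the CD4/ALK4-KO-labelled pair, without overlap (log2 fold change 0.68, adjusted p = 0.065, and -1.51 on the CD3 scale), and passed the test without CD4/ALK4-KO replicate 2 (0.89, adjusted p = 0.0068). *Itga8*, *Itga9*, *Itga10* and *Itgb4*, the last a component of epithelial hemidesmosomes, were all below 10 CPM in each library and had log2 fold changes of 0.014 to 0.26, with -2.16 to -1.92 on the CD3 scale. At these levels a moderate difference was not detectable, the standard errors being 0.36 to 0.55. Another gene annotated on the same strand, also not among the deposited gene symbols, shares 33.5% of the exonic bases of *Itga10*. The filter left out *Itga11*, a collagen receptor subunit of fibroblasts with 1 count in WT replicate 1 and 0 in the other libraries, and *Itgb6*, an epithelial partner of *Itgav* with 0 and 3 counts in the WT-labelled pair and 5 and 1 in the CD4/ALK4-KO-labelled pair.

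In the laminin family the 3 chains called lower were the beta1, gamma1 and alpha5 chains, which together form a trimer common in lung basement membranes. *Lamb1* (chromosome 12, 31265234 to 31329644) was the most abundant chain, with 278 and 297 CPM in the WT-labelled pair and 114 and 152 CPM in the CD4/ALK4-KO-labelled pair. Both groups stood apart, and the log2 fold change was -1.11 (SE 0.22, adjusted p = 6.2e-04), with -3.29 on the CD3 scale. *Lamc1* (chromosome 1, 153218922 to 153332786) had 119 and 115 CPM against 66.0 and 80.8 CPM, a log2 fold change of -0.67 (SE 0.21, adjusted p = 0.018) and of -2.85 on the CD3 scale, and it lost the call without WT replicate 1 (adjusted p = 0.19), without WT replicate 2 (0.14) and without CD4/ALK4-KO replicate 1 (0.051). *Lama5* (chromosome 2, 180176373 to 180225859), whose promoter window is shown above, had 73.9 and 41.3 CPM against 16.1 and 27.0 CPM. It was lower in both CD4/ALK4-KO-labelled libraries, with the widest spread between the WT-labelled pair among the called laminins. Its log2 fold change was -1.42 (SE 0.29, adjusted p = 0.0011) and -3.57 on the CD3 scale, and without WT replicate 1 it was -0.94 (adjusted p = 0.065).

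The alpha chain of endothelial and mesenchymal basement membranes went the other way. *Lama4* (chromosome 10, 38965515 to 39110188) had 23.9 and 34.4 CPM in the WT-labelled pair and 50.3 and 47.0 CPM in the CD4/ALK4-KO-labelled pair. There was no overlap between the groups, and the log2 fold change was 0.74 (SE 0.23, adjusted p = 0.018), with -1.46 on the CD3 scale (adjusted p = 3.1e-07). Without WT replicate 1 the log2 fold change of *Lama4* was 0.49 (adjusted p = 0.43). As a share of the counts of *Lama4* and *Lama5*, a ratio chosen after the counts were seen, *Lama4* took 24.4% and 45.4% in the WT-labelled pair and 75.7% and 63.5% in the CD4/ALK4-KO-labelled pair. The libraries of either group differed by over 10 percentage points, and the groups did not overlap. The like ratio of beta subunits, *Itgb3* among *Itgb3* and *Itgb5*, also chosen after the counts were seen, was 16.7% and 19.8% against 56.3% and 63.9%.

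Of the other laminin chains, *Lamb2* had 32.9 and 30.6 CPM in the WT-labelled pair and 20.8 and 24.5 CPM in the CD4/ALK4-KO-labelled pair, with no overlap but no call (log2 fold change -0.49, adjusted p = 0.13, and -2.66 on the CD3 scale). *Lamc3* was at 0.037 (adjusted p = 0.93), with -2.14 on the CD3 scale. *Lama2*, the alpha chain of muscle and nerve laminin, had 53 and 61 counts in the WT-labelled pair and 17 and 95 in the CD4/ALK4-KO-labelled pair. The libraries labelled CD4/ALK4-KO lay on either side of the WT-labelled pair, so that the log2 fold change of 0.13 (SE 0.57, adjusted p = 0.89) became -1.55 when CD4/ALK4-KO replicate 2 was left out and 0.91 when replicate 1 of that genotype was, and was -2.01 on the CD3 scale. *Lamb3* had 7, 12, 10 and 24 counts, with overlapping groups. *Lama1*, the alpha chain of embryonic laminin, had 0 and 1 counts in the WT-labelled pair against 0 and 7, and *Lama3*, an alpha chain of epithelial laminin, had 10 and 6 against 5 and 21. Neither passed the filter. For the libraries with 0 counts, a count of 0 allows up to 3.

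Beside the stromal integrins and laminins, lists of adherent cell markers moved as follows, against a background of 17.4% higher and 15.4% lower of all genes tested. Of 8 fibroblast markers 0 were higher and 4, *Col3a1*, *Dcn*, *Lum* and *Pdgfrb*, lower (median -0.49), with summed levels of 6761 and 7356 against 4820 and 4013 CPM. Epithelial markers had 1 higher, *Epcam*, and 5 lower of 8, *Krt8*, *Krt18*, *Sftpc*, *Sftpa1* and *Scgb1a1* (median -0.71, summed level 992 and 966 against 629 and 495 CPM). Endothelial markers had 1 higher, *Pecam1*, which many leukocytes also express, and 1 lower, *Cldn5* (median -0.60). The endothelial sum of 58.8 and 75.1 against 128 and 142 CPM was mostly *Pecam1* in the CD4/ALK4-KO-labelled pair. On the CD3 scale the medians of the fibroblast, epithelial and endothelial lists were -2.68, -2.91 and -2.78. None of these lists had a marker at 0 in every library. The part of these cells in the levels of the laminins and stromal integrins was not tested.

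Levels of different genes were compared per length, as RPKM over the merged exons. *Itgb1* ranked first among the members in both groups, at a mean of 362 RPKM in the WT-labelled pair and 259 RPKM in the CD4/ALK4-KO-labelled pair. In the WT-labelled pair it was followed by *Itgam* (92.8), *Itgb2* (89.6), *Itgb7* (53.9) and *Lamb1* (29.0), and the levels of *Itgam* and *Itgb2* differed by less than their replicates. In the CD4/ALK4-KO-labelled pair the order after *Itgb1* was *Itgb2* (211), *Itgam* (131), *Itgb7* (78.9), *Itgal* (61.6) and *Itga4* (43.1), with overlapping replicates of *Itgb7* and *Itgal*. The rank of *Itgal* thus went from 10 to 5, that of *Itga4* from 12 to 6 and that of *Itgae* from 17 to 8, while *Itga5* went from 7 to 14 and *Lamc1* from 8 to 15.

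Genes that work with the integrins were taken from 4 lists. In the list of integrin activation in leukocytes, 12 of 15 genes were higher and 0 lower in the CD4/ALK4-KO-labelled pair (median 1.66, and -0.53 on the CD3 scale), beside the background of 17.4% and 15.4%. Its most abundant gene, *Rap1b*, the small GTPase that switches integrins to high affinity, was at 0.33 (SE 0.22, adjusted p = 0.25), and its paralog *Rap1a* at 0.067 (adjusted p = 0.85). *Dock2*, a Rac activator of lymphocyte migration, was higher at 2.20 (SE 0.24, adjusted p = 5.1e-07) and *Stk4*, the kinase MST1 of the Rap1 pathway, at 1.54 (SE 0.23, adjusted p = 2.0e-05), while on the CD3 scale *Dock2* was at 0.0094, *Stk4* at -0.66, *Rap1b* at -1.87 and *Rap1a* at -2.13.

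Of the focal adhesion genes, which link integrins to actin in adherent cells, 1 was higher and 7 were lower of 18 tested (median -0.39, and -2.54 on the CD3 scale). Beside them, 17.4% of all genes tested were higher and 15.4% lower. *Fermt1*, the kindlin of epithelial cells, was at 0 in every library. The higher one was *Tln1*, which encodes the talin that leukocytes use as well, at 0.92 (SE 0.22, adjusted p = 0.0030) and -1.26 on the CD3 scale. *Vcl*, encoding vinculin, was lower at -0.66 (SE 0.21, adjusted p = 0.019), whereas *Lims1* (-0.097) and *Actn4* (-0.41) were not called. On the CD3 scale these 3 genes were at -2.85, -2.30 and -2.58. The call of *Tln1* was lost without either library of the pair labelled WT (adjusted p = 0.065 and 0.10), as was that of *Vcl* (0.16 and 0.20).

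The cell surface ligands had 3 higher and 1 lower of 7 tested (median 0.066, and -2.13 on the CD3 scale), beside 17.4% and 15.4% of all genes tested. Those higher were *Icam1*, *Icam2* and, named after its value was seen like *Icam2*, *Cdh1*, the E-cadherin gene whose product CD103 binds, at 1.77 (adjusted p = 1.1e-04) and -0.41 on the CD3 scale. *Icam1*, which encodes the main ligand of LFA-1 and of the *Itgam* integrin, was higher at 1.01 (SE 0.24, adjusted p = 0.0023) and at -1.15 on the CD3 scale. *Vcam1*, the ligand of VLA-4, was lower at -0.78 (SE 0.23, adjusted p = 0.013) and at -2.99 on the CD3 scale. The junctional ligands *F11r* (-0.024) and *Jam2* (0.066) were not called, with -2.22 and -2.13 on the CD3 scale. Without WT replicate 1 or 2 the adjusted p of *Vcam1* was 0.079 or 0.16, and without WT replicate 2 that of *Icam1* was 0.095.

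Among the matrix ligands 0 were higher and 8 lower of 13 tested (median -0.81, and -2.98 on the CD3 scale), beside 17.4% and 15.4% of all genes tested. *Spp1*, encoding osteopontin, had 2485 ± 246 CPM (SD, n = 2) in the WT-labelled pair and 904 ± 86.3 CPM (SD, n = 2) in the CD4/ALK4-KO-labelled pair, a log2 fold change of -1.46 (SE 0.20, adjusted p = 9.6e-06, edgeR's quasi-likelihood test), while its CD3 scale value was -3.65. *Col4a1*, the basement membrane collagen that lies beside the laminins, was lower at -1.55 (SE 0.23, adjusted p = 1.7e-05), as was *Nid1*, which joins laminin to that collagen, at -0.87 (SE 0.22, adjusted p = 0.0046), with -3.74 and -3.04 on the CD3 scale. *Fn1*, encoding fibronectin, was not called, at 0.086 (adjusted p = 0.79) and -2.08 on the CD3 scale. Without WT replicate 1 the adjusted p of *Nid1* was 0.11.

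**Figure D4:**
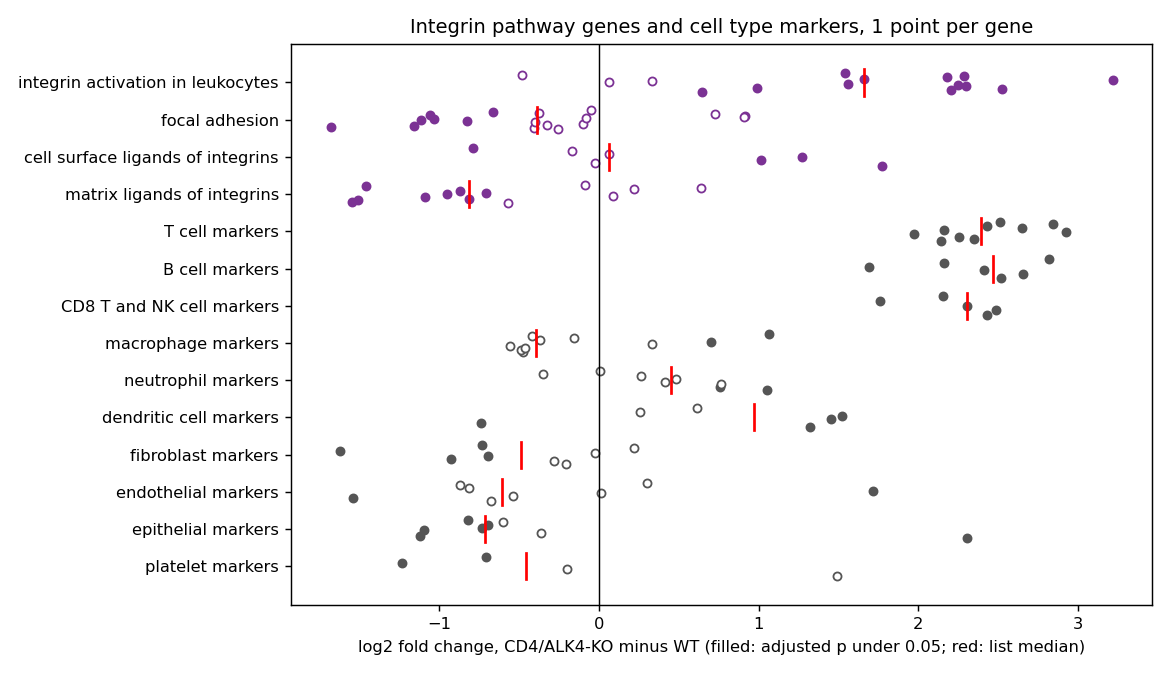
Log2 fold change of each gene in 4 lists of integrin partners and ligands (purple) and 10 lists of cell type markers (grey), with filled points for an adjusted p under 0.05 and red bars for list medians. Integrin activation genes have a median of 1.66 and matrix ligands one of -0.81, and on the CD3 scale these medians are -0.53 and -2.98.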

How the data were processed

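RNA was measured by RNA-Seq in 4 libraries, grouped by the genotype in the labels. HISAT2 alignment of 75 bp single-end reads to mm10 and per-gene counting by htseq-count were done by the authors, who deposited unnormalized counts under gene symbols. The annotation, strand option and versions are not given in the sources used here, and the kit does not mark strand, so reads of a gene and an antisense partner cannot be told apart. The deposited totals of 11823908 to 13943237 counts set the precision. Genes were tested with edgeR 4.0.16 in R 4.3.3 (filterByExpr, TMM, robust quasi-likelihood fit, genotype alone in the model, Benjamini-Hochberg over 13919 genes). Standard errors are the absolute log2 fold change over the square root of F. The scripts were also run on simulated counts with the same spread setting for every gene. That setting is simpler than these data, so the run is no check of the results here. Alternatives were DESeq2 1.42.0 (size factors, Wald test), upper quartile scaling, scaling to 4 CD3 genes (the T cell receptor constant genes were not used here), a block for replicate number, no filter on low counts or a minimum of 10 counts per library, and leaving out each library. Nothing states that replicates came from separate mice, so p-values measure the spread between these samples, which may be technical. Replicates differed by more than sampling noise (chi-square per degree of freedom 16.0 for WT and 28.7 for CD4/ALK4-KO).

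Members and lists were chosen with earlier results of these data known. Values of 1 member are not reported here, although it stays in the counts and medians over members. The other members are all accounted for, with full statistics for the leukocyte integrins, *Itgb1*, and members of other classes with an adjusted p under 0.05 and a mean of at least 100 counts; from each list of partners and ligands the 4 genes with the highest counts are named. Gene positions and exon lengths are those of GENCODE M21 on GRCm38.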

Additional observations from a re-analysis of the deposited data

How the results depend on the processing

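The leukocyte integrins had 0 members called lower under every alternative except the CD3 scale, and *Itgal*, *Itga4*, *Itgae*, *Itgax*, *Itgb2*, *Itgb3*, *Itgb5* and *Lamb1* kept their call on the TMM scale under DESeq2, both filters, upper quartile scaling, the block and each left-out library. DESeq2's size factors in edgeR changed no direction and no call. The CD3 scale, which by construction moves all genes together, gave 48 genes higher and 12803 lower (median -2.19), 0 members higher and 27 lower (median -2.07), and by class 0 and 4 (-0.46) for leukocyte integrins, 0 and 5 (-2.37) for broad and platelet integrins, 0 and 10 (-2.07) for stromal integrins and 0 and 8 (-2.59) for laminins. For the partner lists it gave 1 higher, *Rasgrp1*, and 7 lower (-0.53) in integrin activation, 0 and 18 (-2.54) in focal adhesion, 0 and 6 (-2.13) among surface ligands and 13 lower (-2.98) among matrix ligands. Single genes that changed sign there were *Itgam* (-1.69), *Itgax* (-0.76), *Itgb2* (-0.94), *Itga4* (-0.11), *Itgae* (-0.16), *Itgb7* (-1.61), *Itga2b* (-2.11), *Itgb3* (-0.45), *Itga1* (-1.52), *Itga2* (-1.02), *Itga8* (-2.16), *Itga9* (-2.07), *Itga10* (-1.92), *Itgb4* (-2.08), *Itgb8* (-1.51), *Lama2* (-2.01), *Lama4* (-1.46), *Lamb3* (-1.16), *Lamc3* (-2.14), *Rap1b* (-1.87), *Stk4* (-0.66), *Rap1a* (-2.13), *Tln1* (-1.26), *Icam1* (-1.15), *Jam2* (-2.13) and *Fn1* (-2.08). With upper quartile scaling the median of all genes was -0.076, 2 broad and platelet integrins were lower, 1 stromal integrin was higher, and integrin activation had 1 gene lower and a median of 1.59, while *Itga2b* (-0.0070), *Itga8* (-0.051), *Lamc3* (-0.027) and *Rap1a* (-0.0023) fell below 0.

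Without a filter the laminin median was 0.035 and that of surface ligands 0.77, as low-count genes entered, and with at least 10 counts in every library the leukocyte median was 1.43, as *Itgad* left the test. DESeq2's Wald test called 1 stromal integrin higher. With the replicate number as a block 4 members were lower, 0 of them broad and platelet integrins, 1 stromal integrin and 0 laminins were higher, and *Lama2* was at -0.21. The block took the call from *Itga5* (adjusted p = 0.11), *Itga1* (0.11), *Itga7* (0.068), *Lama4* (0.055), *Lamc1* (0.080) and *Vcl* (0.11). Deviations of same-numbered libraries had a correlation of -0.24 over the genes tested. This value cannot settle whether the replicate numbers mark a pairing or a batch. Counts divided by exon length gave differences of 17.8 percentage points for the share of *Itgal*, -3.90 for laminins and 35.8 for *Itgb3* among *Itgb3* and *Itgb5*.

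With each library left out in turn, the single library left in a group was assumed to vary like the other group. The lowest counts came mostly without WT replicate 1, among them the lowest of the 1103 to 2923 genes higher and 754 to 2618 lower and of the 6 to 12 members higher and 2 to 9 lower (median -0.051 to 0.34). By class, leukocyte integrins had 5 to 8 higher (median 1.44 to 1.91), broad and platelet integrins 0 to 2 lower (median -0.31 to -0.11), stromal integrins 0 to 3 higher and 1 to 3 lower (median 0.0095 to 0.22), and laminins 0 to 1 higher and 1 to 4 lower (median -0.59 to -0.040). Integrin activation had 0 to 1 lower (median 1.62 to 1.86), focal adhesion 0 to 2 higher and 4 to 10 lower (-0.62 to -0.17), surface ligands 0 to 1 lower (0.11 to 0.60), and matrix ligands 3 to 8 lower (-1.08 to -0.58). The difference for *Itgae* among *Itgae* and *Itga4* ran from -4.18 percentage points to 1.90, above 0 without WT replicate 1 only. Single genes that changed sign ran from -0.21 to 0.31 (*Itga2b*), -0.16 to 0.20 (*Itga8*), -0.19 to 0.45 (*Itga9*), -0.039 to 0.25 (*Itgb4*), -1.55 to 0.91 (*Lama2*), -0.093 to 0.18 (*Lamc3*), -0.12 to 0.25 (*Rap1a*), -0.42 to 0.18 (*Lims1*), -0.28 to 0.21 (*F11r*), -0.20 to 0.38 (*Jam2*) and -0.15 to 0.32 (*Fn1*). With 2 libraries per group, depth limits the members with few counts most: *Itgad*, *Itga8*, *Lamb3* and the 4 members outside the filter.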

Other observations

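Genes whose symbols resemble the families but fall outside the rule were also counted. *Itgb3bp*, which encodes a centromere and coactivator protein that binds the tail of the beta3 integrin, had 252 and 271 counts in the WT-labelled pair and 114 and 145 in the CD4/ALK4-KO-labelled pair, which edgeR's quasi-likelihood test called lower (log2 fold change -0.85, adjusted p = 0.022), opposite in sign to the 1.73 of *Itgb3* on the TMM scale and of the same sign on the CD3 scale. *Itgb1bp1*, encoding the adaptor ICAP-1 of the beta1 tail, had 786 and 804 against 501 and 559 counts (-0.42, adjusted p = 0.14, and -2.60 on the CD3 scale), without overlap between the groups. *Itgb2l* had 26 and 21 against 50 and 22 counts, *Itgbl1* 12 and 27 against 10 and 10, and *Itgb1bp2* 0 and 8 against 5 and 9, and none of these 3 was called.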
